A study of Rattus norvegicus with 47 samples.

Results

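Circadian clock genes were followed in the blood of rats over the first day after a stroke. The clock genes were named as Arntl, Per1, Per2, Per3, Cry1, Nr1d1, Nr1d2, Dbp, Tef and Usp2, and each was found by its gene symbol in the deposited table. Of these 10 genes, 9 had a probe set among the 27596 on the array, and each of the 9 had a single one, so that the choice of the brightest probe set per symbol had nothing to choose between. No row carried the symbol Nr1d2, which was not analysed here. The 9 probe sets compare with 20935 gene symbols in the table as a whole.

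Blood was taken repeatedly from 8 male spontaneously hypertensive rats (SHR), 16 weeks old, an inbred strain that develops high blood pressure. The middle cerebral artery (MCA) of every rat was blocked with a thread pushed up the internal carotid artery under anesthesia, and the thread was withdrawn, again under anesthesia, between the 1 and the 2 h samples. Samples were taken at 0 h, just before anesthesia was induced, and at 1, 2, 3, 6 and 24 h after the occlusion, giving 8 arrays per time point except 6 h, which had 7, and 47 arrays in all. All samples up to 6 h came from a tail vein into heparin, and the 24 h sample came from the heart after an anesthetic overdose, so sampling site and time cannot be told apart at 24 h. There were no sham-operated rats and no untreated rats sampled in parallel. The rats were kept in a normal light/dark cycle, and the hour of the day of the 0 h sample was not given in the sources used here. The effects of time of day, of anesthesia and surgery, of handling and of the stroke itself therefore cannot be told apart. The 24 h sample was taken 1 day after the 0 h sample, so that time of day alone was about matched between these 2 time points.

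The circadian clock is a loop of transcription that runs in nearly every cell, blood leukocytes included, over a period of about a day. BMAL1, the product of Arntl, pairs with CLOCK and switches on genes that carry E-boxes, among them the Per and Cry genes, whose proteins return to the nucleus and shut BMAL1 and CLOCK off. In an interlocking loop the REV-ERB receptors, encoded by Nr1d1 and Nr1d2, repress Arntl while the ROR receptors activate it, both through the same response element, the RORE. DBP and TEF are output transcription factors that act at D-boxes, where NFIL3 opposes them, and USP2 is a deubiquitinase that binds clock proteins. Per1 and, to a lesser degree, Per2 are also switched on directly by stress hormones of the glucocorticoid class and by cyclic AMP signalling.

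The upstream sequences of the 4 genes with the largest changes in blood are shown first, because the motifs above are short and can be read directly in them. They are the 250 bases before the transcription start site, 5′ to 3′ on the strand of the gene, taken from RefSeq on GRCr8, a later rat genome build than the one behind the array annotation (rn5). Capitals mark a RORE core (AGGTCA, on either strand) or a D-box (TTATGTAA, on either strand); the other motifs searched on both strands were the E-box CACGTG, the cyclic AMP response element TGACGTCA and the glucocorticoid response element, spelled as the half-sites AGAACA and TGTTCT with any 3 bases between them.
Per1, chr10:54304126-54304375, plus strand: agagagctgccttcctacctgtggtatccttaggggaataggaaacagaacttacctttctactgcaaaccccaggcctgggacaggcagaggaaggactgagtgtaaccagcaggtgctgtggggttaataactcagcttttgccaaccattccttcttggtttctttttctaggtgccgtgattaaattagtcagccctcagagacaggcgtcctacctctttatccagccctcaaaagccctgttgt
Per2, chr9:99496994-99497243, minus strand: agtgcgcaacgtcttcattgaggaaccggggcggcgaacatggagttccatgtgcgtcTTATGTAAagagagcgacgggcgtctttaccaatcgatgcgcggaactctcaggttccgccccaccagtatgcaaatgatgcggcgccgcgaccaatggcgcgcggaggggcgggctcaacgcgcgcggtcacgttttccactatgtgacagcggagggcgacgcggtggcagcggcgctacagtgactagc
Usp2, chr8:53310620-53310869, plus strand: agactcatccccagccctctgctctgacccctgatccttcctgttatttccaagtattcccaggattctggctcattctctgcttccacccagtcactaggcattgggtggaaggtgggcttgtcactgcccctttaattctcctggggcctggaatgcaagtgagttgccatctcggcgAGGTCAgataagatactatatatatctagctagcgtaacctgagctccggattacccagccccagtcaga
Arntl, chr1:176766078-176766327, plus strand: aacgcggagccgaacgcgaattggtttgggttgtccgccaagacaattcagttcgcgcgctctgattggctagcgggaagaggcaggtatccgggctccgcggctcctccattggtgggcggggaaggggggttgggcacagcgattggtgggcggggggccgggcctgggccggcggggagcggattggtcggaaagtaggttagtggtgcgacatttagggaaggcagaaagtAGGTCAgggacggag
The RORE core of Arntl began 15 bases before the start site (position -15) and that of Usp2 at position -70. The bases beside the core were not scored, so these are matches to AGGTCA alone. The D-box of Per2 began at position -192. None of the 5 motifs occurred in the Per1 window, and bases further from that start were not searched. The cyclic AMP and glucocorticoid response elements as spelled here were rare over all promoter windows (1.83% and 0.0149%). Their absence from a single window therefore does not bear on whether Per1 responds to these signals. The table of RefSeq promoters used here held 9 of the 10 genes, with 2 starts for Nr1d1, and Cry1 was not analysed here. The windows searched were 300 bases long and reached 50 bases past the start. In them an E-box also occurred at position -198 of Tef and at position -191 of the second start of Nr1d1. A RORE core occurred at position -187 of Nr1d2, and none of the motifs in Per3, Dbp or the first start of Nr1d1. Over all 33469 rat promoter windows of that length, 16.2% held a RORE core, 6.42% an E-box, 1.83% a cyclic AMP response element, 0.893% a D-box and 0.0149% the glucocorticoid response element as spelled here. Only these exact spellings were searched, so variants were not counted. The Per2 window, for example, holds cacgtt, which differs from the E-box spelling in its last letter. A match is a description of letters and not a binding site, and a missing match does not show that a site is absent.

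All signals below are log2 RMA values, given as the authors' mean ± SD over the 8 arrays of a time point (7 at 6 h), so a difference of 1 is a doubling. Differences were tested with limma on those means and SDs, with p-values adjusted by Benjamini-Hochberg over all 27596 probe sets, and a gene was called changed at an adjusted p below 0.05. Levels of different genes come from different probes and were not compared with each other.

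Expression of 7 of the 9 clock genes changed over the time course by the moderated F-test, beside 55.5% of all probe sets. At the stricter threshold of the study's methods, an unadjusted F-test p of 5e-07, 4 of the 9 were called (Usp2, Per1, Per2 and Arntl), beside 13.5% of all probe sets. Per1, Per2 and Usp2 rose, Per1 with its highest mean at 1 h and Per2 and Usp2 with theirs at 6 h. Arntl, Cry1, Nr1d1 and Dbp fell by 1 h and were still lower at 24 h, although no call of Dbp held after quantile normalization of the means. Per3 and Tef passed the test at none of the time points. The 9 clock genes had a median largest change (in size, from 0 h) of 0.56, beside 0.24 for all probe sets.

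**Figure D1:**
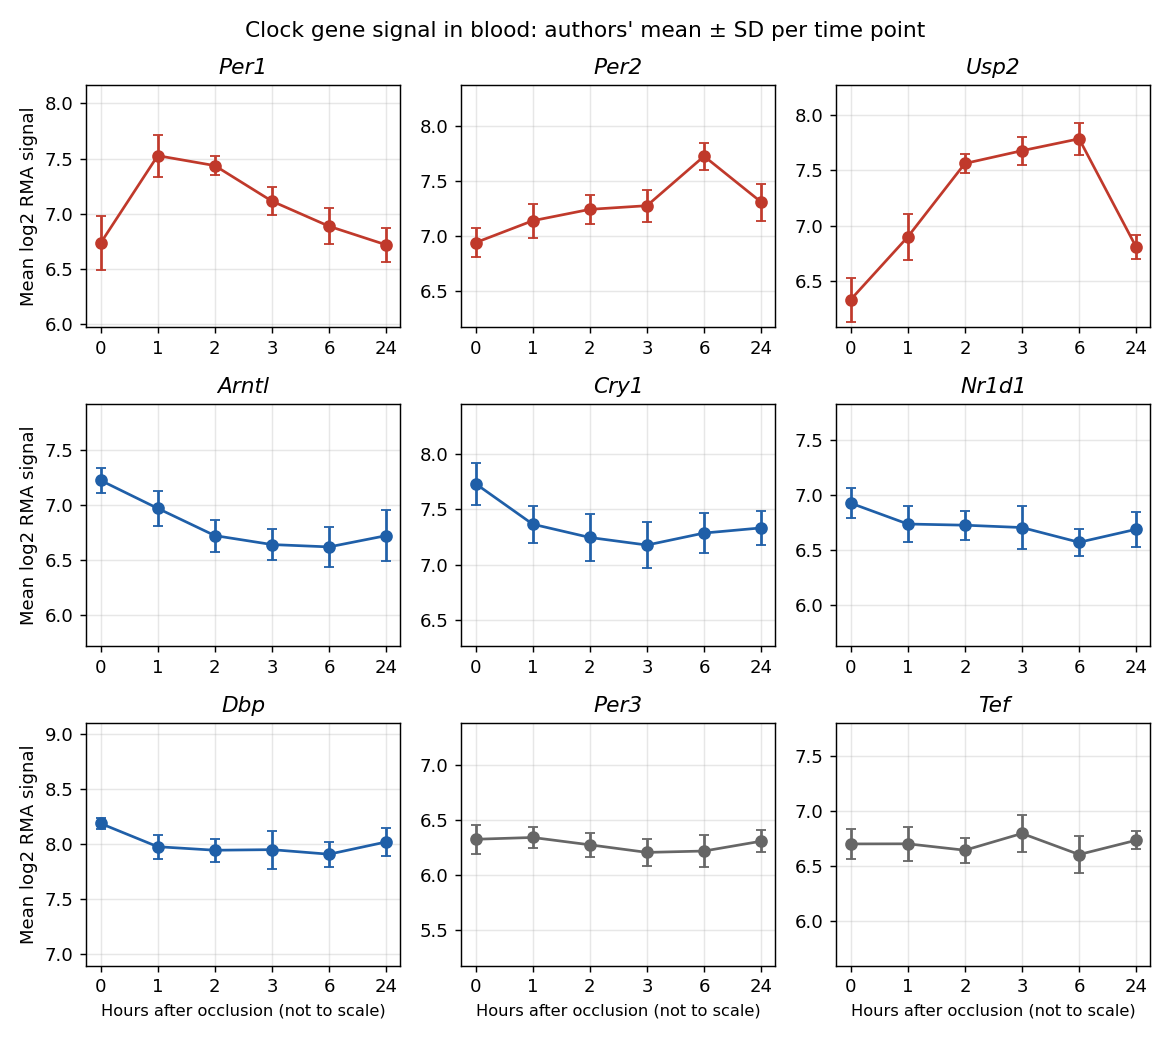
Mean log2 RMA signal (vertical axis, a span of the same size in every panel) of 9 clock genes against hours after occlusion (horizontal axis, evenly spaced and not to scale); points are the authors' means and bars their SDs over 8 arrays (7 at 6 h). Per1 had its highest mean at 1 h, Per2 and Usp2 at 6 h (red), Arntl, Cry1, Nr1d1 and Dbp were highest at 0 h (blue), and Per3 and Tef were not called at any time point (grey).

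Among the repressors of the loop, Per1 had its highest mean at 1 h and came back. Its probe set (10734882) lies over the gene on the plus strand of rn5, chr10:55428556-55439612. Mean signal before the occlusion was 6.73 ± 0.25, and after it 7.53 ± 0.19, 7.44 ± 0.08, 7.11 ± 0.13, 6.89 ± 0.16 and 6.72 ± 0.16 at 1, 2, 3, 6 and 24 h. The 1 and 2 h means were above the 0 h mean by more than the SDs of both groups together, and the 24 h mean was back at the 0 h mean. The rise from 0 h was 0.79 at 1 h (95% interval 0.63 to 0.96, 1.73-fold, adjusted p = 2.44e-10), 0.70 at 2 h (adjusted p = 1.61e-09) and 0.38 at 3 h (adjusted p = 2.29e-04). At 6 h the difference was 0.15 (interval -0.02 to 0.33, adjusted p = 0.151), and at 24 h it was -0.02 (interval -0.18 to 0.15, adjusted p = 0.906). The levels at 1 and 2 h did not separate (adjusted p = 0.607), and the fall from 2 to 3 h by 0.32 passed the test (adjusted p = 0.0171). The further steps from 3 to 6 h and from 6 to 24 h did not (adjusted p = 0.126 and 0.186).

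Per2, which acts with CRY proteins as Per1 does, rose slowly and peaked late. Its probe set (10929842) is on the minus strand of rn5, chr9:98231204-98273371, and carries the gene whose D-box is shown above. Mean signal before the occlusion was 6.94 ± 0.13, and after it 7.14 ± 0.15, 7.24 ± 0.13, 7.28 ± 0.15, 7.73 ± 0.12 and 7.31 ± 0.17 at 1, 2, 3, 6 and 24 h. The 6 h level was above every other one, and those at 1, 2, 3 and 24 h did not separate from each other. Per2 was higher than at 0 h by 0.30 at 2 h (adjusted p = 6.40e-04), by 0.34 at 3 h (adjusted p = 1.65e-04) and by 0.78 at 6 h (interval 0.64 to 0.93, 1.72-fold, adjusted p = 2.93e-12). The 1 h difference of 0.20 passed the test (adjusted p = 0.0258), but not after each time point was centred on its median (adjusted p = 0.106) or after quantile normalization of the means (adjusted p = 0.0541). Most of the rise fell between 3 and 6 h (0.45, adjusted p = 7.25e-05), and it was partly reversed between 6 and 24 h (-0.42, adjusted p = 2.59e-05). At 24 h Per2 was still 0.37 above 0 h (interval 0.22 to 0.51, adjusted p = 1.09e-04), which was 46.9% of its largest change.

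Per3, the third Period gene and the one least required for the rhythm, did not pass the test. Its probe set (10881861) is on the minus strand of rn5, chr5:171665307-171700125. The mean signal started at 6.33 ± 0.13 at 0 h and then was 6.34 ± 0.09, 6.28 ± 0.11, 6.21 ± 0.12, 6.22 ± 0.14 and 6.31 ± 0.10 at 1, 2, 3, 6 and 24 h. The largest difference from 0 h was -0.12 at 3 h (interval -0.24 to 0.003, adjusted p = 0.101). After centring on the median it was -0.16 (adjusted p = 0.0334) and after quantile normalization -0.19 (adjusted p = 0.01), and at 6 h quantile normalization took -0.11 (adjusted p = 0.169) to -0.17 (adjusted p = 0.0291), so a call at 3 and 6 h depended on the scaling. The 3 Period genes thus had 3 courses in the same samples: Per1 highest at 1 and 2 h, Per2 highest at 6 h, and Per3 with no call.

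Cry1, a cryptochrome that represses BMAL1 and CLOCK together with the PER proteins, moved in the other direction to Per1 and Per2. Its probe set (10894525) is on the plus strand of rn5, chr7:24683890-24784329. Mean signal before the occlusion was 7.73 ± 0.19, and after it 7.37 ± 0.17, 7.25 ± 0.21, 7.18 ± 0.21, 7.29 ± 0.18 and 7.33 ± 0.16 at 1, 2, 3, 6 and 24 h. The 0 h level was the highest, and the 5 later ones did not separate from each other. Cry1 fell by 0.37 at 1 h (adjusted p = 0.00148) and by 0.49 at 2 h (adjusted p = 2.30e-05). It was lowest at 3 h, with a difference of -0.56 (interval -0.74 to -0.37, adjusted p = 2.35e-06), a 1.47-fold lower signal. At 6 h the difference was -0.45 (adjusted p = 1.40e-04) and at 24 h -0.40 (interval -0.58 to -0.22, adjusted p = 7.58e-04), which was 72.0% of the largest change.

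Arntl, the activator of the loop, was highest before the occlusion. Its probe set (10710028) is on the plus strand of rn5, chr1:185007568-185105413. Mean signal before the occlusion was 7.22 ± 0.12, and after it 6.97 ± 0.16, 6.72 ± 0.14, 6.64 ± 0.14, 6.62 ± 0.18 and 6.72 ± 0.23 at 1, 2, 3, 6 and 24 h. The 0 h level stood above all others, and those at 2, 3, 6 and 24 h did not separate from each other. The 1 h level lay between, above those at 2, 3 and 6 h but not separated from that at 24 h (adjusted p = 0.0599). Arntl fell by 0.25 at 1 h (interval -0.42 to -0.09, adjusted p = 0.0122), by 0.50 at 2 h (adjusted p = 1.84e-06) and by 0.58 at 3 h (adjusted p = 8.63e-08). The lowest mean was at 6 h, with a difference of -0.60 (interval -0.77 to -0.43, adjusted p = 7.56e-08), a 1.52-fold lower signal. The step from 1 to 2 h, -0.25, was near the threshold (adjusted p = 0.0458) and was lost after centring (adjusted p = 0.0726) or quantile normalization (adjusted p = 0.0724). At 24 h Arntl was still 0.50 below 0 h (interval -0.67 to -0.34, adjusted p = 6.44e-06), 83.1% of its largest change, the highest such share among the 7 clock genes that changed.

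Nr1d1, which encodes the REV-ERB alpha receptor that represses Arntl, also fell. Its probe set (10746955) is on the minus strand of rn5, chr10:86479882-86486808. At 0 h the mean signal was 6.93 ± 0.14, followed by 6.74 ± 0.16, 6.73 ± 0.13, 6.71 ± 0.19, 6.57 ± 0.12 and 6.69 ± 0.16 at 1, 2, 3, 6 and 24 h. The differences from 0 h were -0.19 at 1 h (adjusted p = 0.0449), -0.20 at 2 h (adjusted p = 0.0314) and -0.22 at 3 h (adjusted p = 0.0153), close to the SDs within a time point. The largest was -0.36 at 6 h (interval -0.51 to -0.20, adjusted p = 2.68e-04, 1.28-fold lower). At 24 h it was -0.24 (interval -0.39 to -0.08, adjusted p = 0.0149), 66.8% of the largest. The gene overlaps Thra, the thyroid hormone receptor alpha gene, on the opposite strand, which has a probe set of its own.

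Of the D-box factors, Dbp fell and Tef did not pass the test. Dbp (probe set 10706953, plus strand, rn5 chr1:102766728-102771674) had a mean signal of 8.19 ± 0.05 at 0 h and of 7.97 ± 0.11, 7.94 ± 0.10, 7.95 ± 0.17, 7.91 ± 0.11 and 8.02 ± 0.13 at 1, 2, 3, 6 and 24 h. The 0 h arrays were the highest on average and the closest to each other. Dbp fell by 0.21 at 1 h (adjusted p = 0.00576), 0.24 at 2 h (adjusted p = 0.00121) and 0.24 at 3 h (adjusted p = 0.00140), and by 0.28 at 6 h (interval -0.41 to -0.15, adjusted p = 3.52e-04, 1.21-fold lower). At 24 h it was 0.17 below 0 h (interval -0.29 to -0.05, adjusted p = 0.0316). All 5 of these calls were lost after quantile normalization of the means, where the largest fall was 0.15 at 6 h (adjusted p = 0.0662). Tef (probe set 10897997, plus strand, rn5 chr7:123009645-123034385) had a mean signal of 6.70 ± 0.14 at 0 h and of 6.71 ± 0.16, 6.65 ± 0.11, 6.80 ± 0.17, 6.61 ± 0.17 and 6.74 ± 0.08 at 1, 2, 3, 6 and 24 h. Its differences from 0 h ran from -0.10 at 6 h (interval -0.24 to 0.05, adjusted p = 0.296) to 0.10 at 3 h (adjusted p = 0.270).

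Usp2, the deubiquitinase, had the largest change of the 9 genes, and its F-test ranked 41 among all 27596 probe sets (adjusted p = 3.15e-22). Its probe set (10909411) is on the plus strand of rn5, chr8:47020209-47046948. From a mean signal of 6.33 ± 0.20 at 0 h it went to 6.90 ± 0.21, 7.56 ± 0.08, 7.68 ± 0.13, 7.79 ± 0.15 and 6.80 ± 0.11 at 1, 2, 3, 6 and 24 h. The level climbed between 0 and 2 h, stayed high up to 6 h, and was at the 1 h level again at 24 h. Usp2 rose by 0.57 at 1 h (adjusted p = 8.48e-08), by 1.24 at 2 h (adjusted p = 3.09e-18), by 1.35 at 3 h (adjusted p = 1.36e-19) and by 1.46 at 6 h (interval 1.30 to 1.62, 2.75-fold, adjusted p = 3.47e-20). The step from 1 to 2 h was 0.67 (adjusted p = 3.03e-08), whereas the levels at 2, 3 and 6 h did not separate between neighbours (2 to 3 h, adjusted p = 0.492; 3 to 6 h, adjusted p = 0.523). Between 6 and 24 h Usp2 fell by 0.98 (adjusted p = 9.36e-14). It stayed 0.48 above 0 h (interval 0.32 to 0.63, adjusted p = 5.10e-06), 32.6% of its largest change, and did not separate from 1 h (adjusted p = 0.596).

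**Figure D2:**
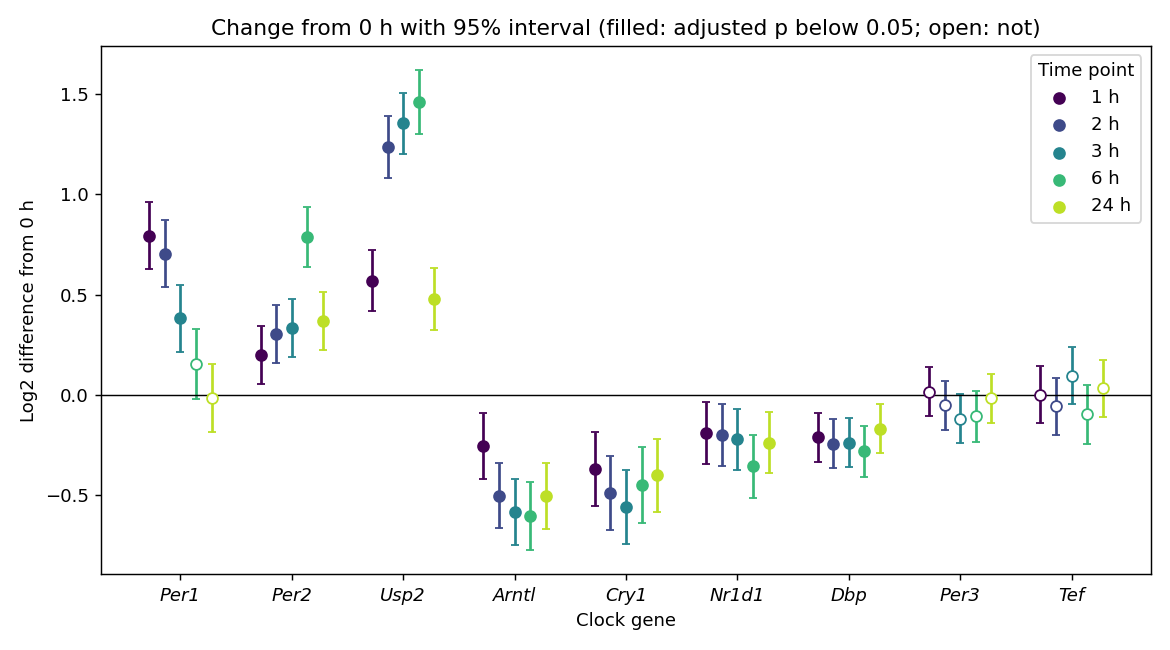
Log2 difference from 0 h (vertical axis) of each clock gene (horizontal axis) at 1, 2, 3, 6 and 24 h (colours, left to right), with 95% intervals; filled points had an adjusted p below 0.05 and open points did not. Per1 was open at 6 and 24 h, while Per2 and Usp2 at 24 h stayed above 0 and Arntl, Cry1, Nr1d1 and Dbp stayed below it.

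Counted by time point against 0 h, 3 clock genes were higher at 1 h and 4 lower, where 21.7% of all probe sets were higher and 15.4% lower. At 2 h the counts were again 3 and 4 (21.7% and 18.6% of all), and at 3 h 3 and 4 (27.3% and 19.2%). At 6 h, with Per1 no longer called, 2 were higher and 4 lower (22.5% and 19.3%). Scaling moved single calls: at 1 h centring left 2 higher and quantile normalization 2 higher and 3 lower, at 2 h quantile normalization left 3 lower, and at 3 h centring gave 5 lower. The 4 lower after quantile normalization at 3 and 6 h held Per3 in place of Dbp. All 5 comparisons share the 0 h arrays, so the counts are not independent of each other. Between neighbouring time points from 1 h on, 1 or 2 of the 9 clock genes were called at each step. From 1 to 2 h Usp2 rose and Arntl fell (4.66% of all probe sets rose and 4.11% fell), from 2 to 3 h Per1 fell (1.62% fell; 1.90% rose, no clock gene among them), from 3 to 6 h Per2 rose (2.34% rose; 2.44% fell, no clock gene among them), and from 6 to 24 h Per2 and Usp2 fell (8.68% fell; 10.2% rose, no clock gene among them).

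The comparison of 24 h with 0 h holds the time of day about constant. At 24 h 2 of the 9 clock genes were higher (Per2 and Usp2) and 4 were lower (Arntl, Cry1, Nr1d1 and Dbp), where 17.4% of all probe sets were higher and 13.9% lower. For Per1 the 24 h interval of -0.18 to 0.15 leaves no room for a difference the size of its 1 h rise. For the other genes that had changed, the share of the largest change that was left at 24 h ran from 32.6% (Usp2) and 46.9% (Per2) through 60.1% (Dbp), 66.8% (Nr1d1) and 72.0% (Cry1) to 83.1% (Arntl). These shares are a description. After quantile normalization 3 were lower at 24 h, with Dbp at -0.07 (adjusted p = 0.480). The change of sampling site from tail vein to heart falls on the same comparison.

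The wider clock was described with 21 other genes of the loop, its kinases and ubiquitin ligases and its outputs, with 1 probe set each. By the F-test 14 of the 21 changed, beside 55.5% of all probe sets, and 16 were called against 0 h at 1 or more time points (67.3% of all probe sets), with a median largest change of 0.35. Of the 21, 7, 6, 7, 6 and 3 were higher at 1, 2, 3, 6 and 24 h, and 3, 3, 3, 6 and 7 were lower. Over all probe sets 21.7%, 21.7%, 27.3%, 22.5% and 17.4% were higher and 15.4%, 18.6%, 19.2%, 19.3% and 13.9% lower, so that several of these counts, such as 3 of 21 higher at 24 h, were near the share of all probe sets. After centring on the median 5, 6, 4, 4 and 1 were higher and 4, 3, 4, 7 and 7 lower, so that the balance at 3 and 6 h depended on the scaling. The values that follow are log2 differences from 0 h.

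Of the activators, Clock, the partner of Arntl, fell with it, by 0.65 at 2 h (adjusted p = 1.34e-08), and was 0.30 lower at 24 h (adjusted p = 0.0060, lost after quantile normalization). Arntl2, the paralog of Arntl, went the other way and was 0.43 higher at 6 h (adjusted p = 4.69e-06), while Npas2, which can stand in for Clock, was not called. Of the repressors, Cry2 fell like Cry1, by 0.48 at 3 h (adjusted p = 3.39e-08), and was still 0.28 lower at 24 h (adjusted p = 8.84e-04). Bhlhe40, which encodes DEC1, a repressor that competes for E-boxes, fell most of all the clock genes listed, by 0.88 at 3 h (adjusted p = 5.73e-08), and was 0.45 lower at 24 h (adjusted p = 0.00365). Its paralog Bhlhe41 was 0.28 lower at 24 h (adjusted p = 0.0186), and quantile normalization also called it lower at 6 h (-0.29, adjusted p = 0.0149). Ciart, whose probe set also carries another symbol, passed the F-test (adjusted p = 0.0199) but was called against 0 h at no time point. Centring called it lower at 6 h (-0.19, adjusted p = 0.0383), where the value without it was -0.16 (adjusted p = 0.0793).

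Of the ROR receptors, which oppose Nr1d1 at Arntl, Rora was 0.31 higher at 1 h (adjusted p = 0.0126) and 0.27 lower at 24 h (adjusted p = 0.0327, lost after quantile normalization). Rorb was 0.16 higher at 24 h (adjusted p = 0.0251, lost under both scalings). Nfil3, the repressor at D-boxes, rose while Dbp fell. It was 0.36 higher at 1 h (adjusted p = 3.67e-06), 0.79 at 2 h (adjusted p = 1.42e-15), 0.86 at 3 h (adjusted p = 8.04e-17) and 0.83 at 6 h (adjusted p = 6.43e-16), and 0.14 higher at 24 h, which did not pass the test (adjusted p = 0.0696) except after quantile normalization (0.22, adjusted p = 0.00451). Hlf, the third factor of the Dbp and Tef family, was 0.19 higher at 2 h (adjusted p = 0.0127, lost after quantile normalization).

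Of the enzymes that act on PER and CRY, Csnk1e, the casein kinase 1 epsilon that phosphorylates PER, was 0.48 higher at 1 h (adjusted p = 1.96e-05) and 0.70 higher at 2 h (adjusted p = 2.69e-09), and at 24 h the difference was -0.02 (adjusted p = 0.890). Quantile normalization also called Csnk1e higher at 6 h (0.25, adjusted p = 0.0224). Csnk1d was not called. Btrc, the ligase subunit that recognises PER, was 0.35 higher at 24 h (adjusted p = 0.00146), its relative Fbxw11 was 0.20 higher at 6 h (adjusted p = 0.0441, lost after centring), and Fbxl21 was not called.

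Among clock-controlled and associated genes, Wee1, a cell cycle kinase under E-box control, was 0.44 higher at 1 h (adjusted p = 0.00177), 0.71 lower at 6 h (adjusted p = 1.58e-06) and 0.36 lower at 24 h (adjusted p = 0.0119). Nampt, the rate-limiting enzyme of NAD salvage, was 0.26 lower at 6 h (adjusted p = 0.00813, lost after quantile normalization) and 0.48 lower at 24 h (adjusted p = 5.04e-06). Quantile normalization also called it higher at 1 h (0.27, adjusted p = 0.00583) and 2 h (0.27, adjusted p = 0.00490), where the values without it were 0.18 and 0.15 (adjusted p = 0.0602 and 0.127). Klf10 was 0.55 higher at 6 h (adjusted p = 5.37e-10). Por, the cytochrome P450 reductase, was 0.39 higher at 2 h (adjusted p = 5.29e-06), and Timeless was not called. Centring also called Klf10 lower at 1 h (-0.18, adjusted p = 0.0180) and Wee1 lower at 3 h (-0.28, adjusted p = 0.0397).

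**Figure D3:**
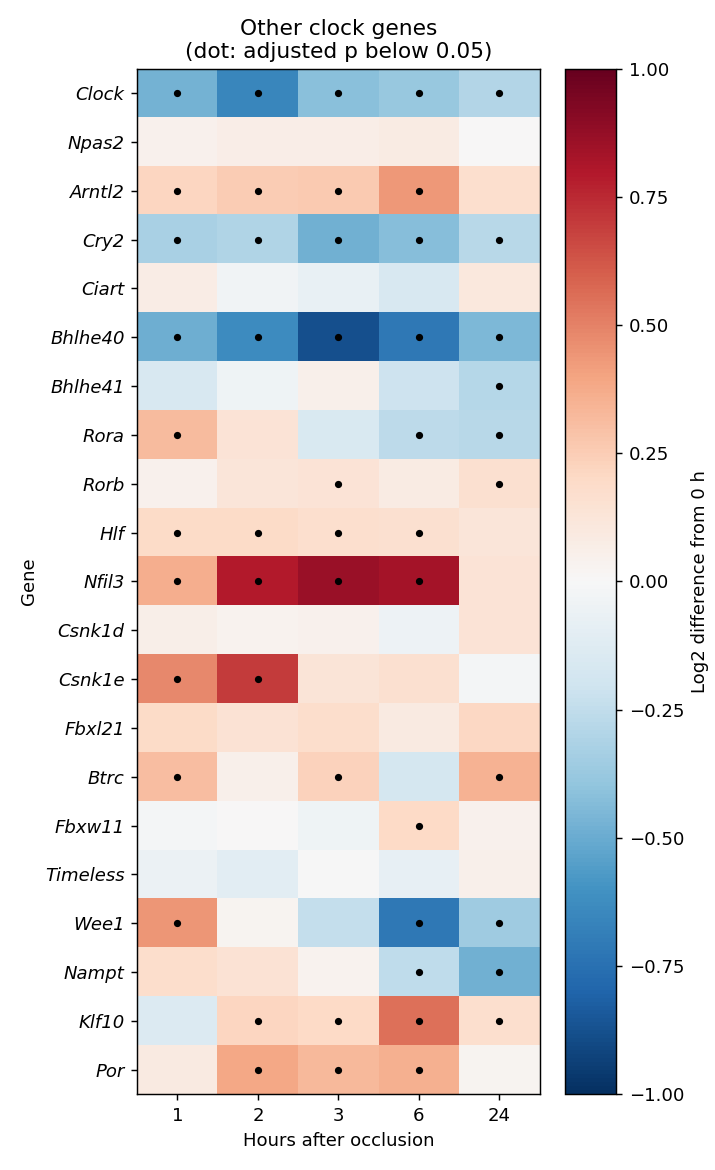
Log2 difference from 0 h (colour scale, red higher and blue lower) of 21 other clock genes (rows) at 1, 2, 3, 6 and 24 h after occlusion (columns); a dot marks an adjusted p below 0.05. Clock, Cry2 and Bhlhe40 were lower in all 5 columns, and Nfil3 was higher from 1 to 6 h.

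Per1 is known as a direct target of the glucocorticoid receptor, so 9 other genes that glucocorticoids induce were set beside it. At 1 h 7 of the 9 were higher and none lower, with a median difference of 0.58 (21.7% of all probe sets were higher and 15.4% lower), and at 2 h 5 were higher and 1 lower, with a median of 0.65 (21.7% and 18.6% of all). At 3 h 4 were higher and 0 lower (median 0.01, beside 27.3% and 19.2% of all), at 6 h 4 and 3 (median 0.07, beside 22.5% and 19.3%), and by 24 h 2 and 1 (median -0.06), a count near the 17.4% and 13.9% of all probe sets. Fkbp5, which encodes a cochaperone of the receptor, was 1.56, 1.98, 1.57, 0.84 and 0.67 above 0 h at the 5 later time points, and Sgk1, a kinase, was 0.89 and 0.79 above it at 1 and 2 h and 0.01 above it at 3 h. Other members differed. Tsc22d3 was called at no time point (0.21 at 1 h, adjusted p = 0.0603) except at 1 h after quantile normalization (0.29, adjusted p = 0.0133). The largest changes of Klf9 and Errfi1 were falls (-0.39 at 24 h and -0.20 at 6 h). The part of glucocorticoids in the Per1 values was not tested.

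Marker genes of blood cell types moved at the same time points. Markers of neutrophils were higher for 7 of 8 genes from 1 to 6 h and 6 of 8 at 24 h, with median differences of 0.82, 1.40, 1.33, 1.55 and 0.74 at 1, 2, 3, 6 and 24 h, and their mean level went from 9.70 at 0 h to 11.15 at 6 h. All 7 T cell markers were lower at every later time point (medians -0.55, -1.02, -1.02, -1.14 and -0.76), with a mean level of 9.75 at 0 h and 8.58 at 6 h. Of 6 B cell markers 5, 6, 5, 5 and 4 were lower (medians -1.50, -2.00, -2.07, -1.76 and -0.53), with a mean level of 9.50 at 0 h and 8.17 at 6 h. Of 5 NK cell markers 1, 3, 3, 4 and 4 were lower and 1, 1, 0, 1 and 0 higher, and of 5 monocyte markers 4, 3, 3, 3 and 3 were lower and 0, 2, 2, 2 and 0 higher. Of all probe sets 15.4% to 19.3% were lower and 21.7% to 27.3% higher from 1 to 6 h. A count of 1 of 5 markers is at that share. At 24 h 13.9% of all probe sets were lower and 17.4% higher. Platelet and erythroid markers had medians between 0.00 and 0.26 and between -0.16 and 0.31, with single members further up, such as Slc4a1 (0.58) and Itga2b (0.49) at 24 h. Their high signals (Pf4 13.06 and Alas2 13.39 at 0 h) were present as the labelled tissue, whole blood, would hold them. In a bulk blood sample, fewer cells of a type and less RNA per cell cannot be told apart. The part of the cell makeup in the clock gene values was not tested.

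**Figure D4:**
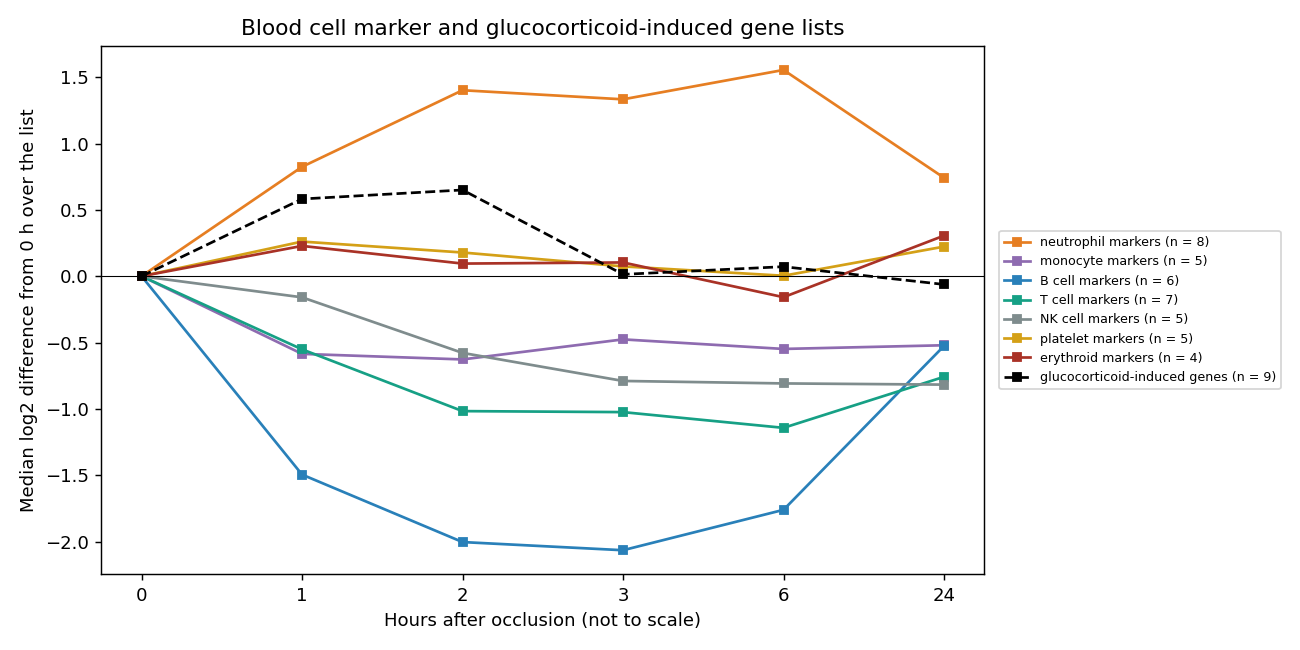
Median log2 difference from 0 h (vertical axis) over lists of blood cell marker genes (solid lines) and of glucocorticoid-induced genes (dashed line) against hours after occlusion (horizontal axis, not to scale); the number of genes measured in each list is in the legend. The neutrophil median rose to 1.55 at 6 h, the B cell median fell to -2.07 at 3 h, and the glucocorticoid median peaked at 0.65 at 2 h.

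For the 5 clock genes that changed by at least 0.5, the 2 genes with the closest course were sought among 20428 probe sets that carry 1 symbol and are none of the clock genes named at the start, by the root-mean-square difference of the 5 changes from 0 h. For Usp2 these were Rufy4 (difference 0.058) and Msl1 (0.067), and for Per1 they were Vegfa (0.092), the angiogenic growth factor, and Myct1 (0.097). Vegfa was higher than at 0 h by 0.68, 0.79, 0.43, 0.25 and 0.08 at 1, 2, 3, 6 and 24 h. For Per2 they were Pgk1 (0.044), a glycolytic enzyme, and Itm2c (0.077), for Arntl Pxylp1 (0.036) and Vldlr (0.051), and for Cry1 Polr1e (0.027), an RNA polymerase I subunit, and LOC684557 (0.029). The likeness is over 5 differences that share the 0 h arrays, and is a description only.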

How the data were processed

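Gene expression was measured in whole blood pellets on Affymetrix RaGene 1.0 ST arrays. Per the file headers, the authors deposited gene-level RMA signals on the log2 scale, annotated on rn5, with the mean and SD of each time point over 8 arrays (7 at 6 h). The table also holds 47 single-array columns whose headings match no sample label, which were not used, and the authors' fold changes and p-values for their own comparisons, which were not used either. The submitters' processing notes and the study's methods name limma.

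For each of 27596 probe sets, limma's linear model with 1 mean per time point was rebuilt in R 4.3.3 with limma 3.58.1 from the deposited log2 means, SDs and array numbers (41 residual degrees of freedom, prior 5.71). This equals lmFit and eBayes on the arrays without an animal term, which was tested on simulated data. Of 15 pairwise comparisons, the 9 against 0 h or between neighbouring time points were counted, and the other 6 served only to order levels. Each rat gave several samples and the rat could not be entered in the model, so p-values treat the arrays as independent. The number of arrays limits the precision. RNA workup was randomized over batches according to the methods, and no batch could be entered in the model.

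The 10 clock genes, the other lists and the tests were chosen with earlier results of these data known. The genes named were the 10 clock genes whatever their values, other clock genes called against 0 h, and, for clock genes called by the F-test and changed by at least 0.5, the 2 nearest courses; other list members were named as examples after their values were seen. Clock genes without a call were named as the rest of their list. Of the listed symbols, 3 (Nr1d2, Cebpd and Itgb3) matched no row. A few genes that belong to these lists are not reported here and were left out of the counts. Promoters came from RefSeq (GRCr8) and were searched in Python 3.11.15, and matplotlib 3.10.9 drew the figures. The alternatives tried were no variance moderation, an intensity trend with a robust prior, centring or quantile normalization of the means, leaving out the 25% of probe sets with the lowest signal, the SDs of the compared time points alone, an F-test without 24 h and the threshold of the methods.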

Additional observations from a re-analysis of the deposited data

How the results depend on the processing

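Of the 486 values recomputed for single clock genes, 463 kept their direction and their side of the threshold, 10 lost the call, 3 gained one and 10 changed sign. The number of clock genes called by the F-test was 7, 6 after quantile normalization of the means, and 4 at an unadjusted p below 5e-07. The fall from 1 to 2 h, called for 1 gene (Arntl), was called for 0 with no variance moderation, with centring and with quantile normalization; the cause was not tested. Every change of sign was in a difference that was not called. For Per3 at 1 h against 0 h, 0.02 became -0.033 with centring and -0.049 with quantile normalization, and for Tef 0.00 became -0.048 and -0.042. For Tef at 24 h against 0 h, 0.03 became -0.0079 and -0.0017. From 1 to 2 h Nr1d1 went from -0.01 to 0.0094 and 0.013, and from 2 to 3 h Dbp went from 0.01 to -0.0042 and -0.0040. The intensity trend with a robust prior, the filter on low signal and the SDs of the compared time points alone changed no call of a clock gene, and the F-test without 24 h called 7. No paired analysis was possible because the deposited means and SDs carry no rat, and the single-array columns match no label. The mean over all probe sets of a gene was not run, since each clock gene had 1 probe set.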
